A study of Rattus norvegicus with 20 samples.

Results

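The comparison described here set 30% calorie restriction (CR) against 5% CR after 1 week in the white adipose tissue of rats, so that both groups were restricted and only the severity differed. It was chosen by the sample labels, and it takes 2 chips of 1 pool from rats on 30% CR and 2 chips of 1 pool from rats on 5% CR, 4 of the 20 chips in the series. All rats were male Wistar, an outbred laboratory strain, bought at 5 weeks of age, kept singly on a powdered AIN-93G diet and, by the design text, 6 weeks old when restriction began. The 30% group was given 70% of the recorded food intake and the 5% group 95%, and fat was taken after an overnight fast, which all groups shared. Each group's 5 rats were combined into a single RNA pool, and that pool was hybridised to 2 chips. The chips repeat the measurement and not the rats, so n is 1 pool per group. The same levels after 1 month, in other rats, and the 10% and 20% CR pools at 1 week gave independent readings of the same genes.

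White fat stores triglyceride and releases fatty acids when food is short. In fasted tissue the drop in insulin and the rise in glucocorticoid and catecholamine signals switch on lipolysis and restrain pyruvate dehydrogenase. They favour the oxidation of fatty acids and branched-chain amino acids. Synthesis of fatty acids and sterols, matrix production and cell division are among the costly programmes of a growing fat depot.

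The values are Affymetrix MAS5 signals, intensities on a linear scale with 1 value per probe set. Differences are log2 of 30% CR over 5% CR, taken between chips of the same replicate number and averaged, since the second chips at 1 week had been scaled to a higher trimmed mean (112) than the first (77.7). After the low signals were left out, 9520 probe sets for 7113 genes were tested. Adipocyte markers identified both pools as fat. The 21 markers on the array summed to 31645 and 48581 in the 30% CR chips and to 29650 and 42100 in the 5% CR chips, none was under a signal of 20, and their median difference was 0.12. The 5 epididymis markers on the array were all under 20 in the 30% CR pool. In the 5% CR pool 4 of them were, and Adam7 had 21.5 and 12.5.

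Markers of other tissues differed strongly between these pools. The 34 genes of exocrine pancreas, such as trypsinogen Prss1 and procarboxypeptidase Cpb1, summed to 1749.7 and 2606.7 in the 30% CR chips, against 567.2 and 799.5 in the 5% CR chips, and 20 of them were higher in both chip pairs while 4 were lower. Prss1 alone had signals of 286.8 and 363.5 in the 30% CR pool and of 14.7 and 19.9 in the 5% CR pool. The 45 lymphocyte genes, such as the T cell receptor chain Cd3d and the B cell receptor chain Cd79b, went the other way, with sums of 1433.5 and 2096.7 in the 30% CR chips and 5219.1 and 6873.3 in the 5% CR chips. Of these, 40 were lower in both pairs and 0 were higher, while 23 in the 30% CR pool and 9 in the 5% CR pool were under a signal of 20. Both lists were set aside, which removed 38 tested probe sets and left 9482 probe sets for 7079 genes. In bulk tissue, fewer cells of a type and less RNA per cell cannot be told apart.

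**Figure D1:**
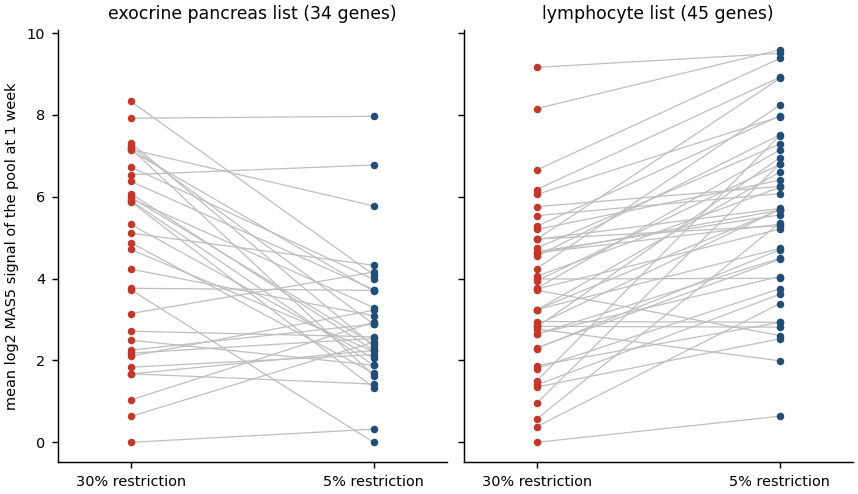
Mean log2 MAS5 signal of the 34 exocrine pancreas genes and the 45 lymphocyte genes on the array, in the 30% CR pool (left) and the 5% CR pool (right) at 1 week, with 1 line per gene. On both chip pairs 20 of the pancreas genes stand higher in the 30% CR pool and 40 of the lymphocyte genes stand lower in it.

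The mean log2 signal of the lymphocyte list also moved among the other pools. At 1 week it was 7.74 in the control pool, 7.01 at 5% CR, 6.14 at 10% CR, 6.40 at 20% CR and 4.66 at 30% CR. At 1 month it was 7.75 in the control pool, 7.67 at 5% CR, 4.74 at 10% CR, 4.74 at 20% CR and 6.85 at 30% CR. The order at 1 month did not follow the level of restriction. The correlation of single genes with this score, over the 8 pools outside the comparison, stands beside the decreases at 30% CR.

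With 1 pool per group, probe sets were called by size: both chip pairs had to differ the same way and their mean had to reach 1.5-fold. By this rule 359 probe sets were higher (3.79% of those tested) and 761 were lower (8.03%) at 30% CR than at 5% CR, and 66 of the higher and 206 of the lower reached 2-fold. Per gene, 277 of 7079 were higher (3.91%) and 573 were lower (8.09%). The excess of lower calls depended on the scaling, since chips centred on their medians gave 473 higher and 576 lower, and quantile normalization gave 492 higher and 501 lower. The median difference over all tested probe sets was -0.04, and the differences of the first and second chip pairs correlated at r = 0.659 across probe sets, which are not independent replicates.

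A formal test had to borrow its spread from the other 8 pools. With limma, which took the scatter of those pools around their dose lines as the error, 0 probe sets were higher and 0 lower after Benjamini-Hochberg adjustment (smallest adjusted p = 0.235), and 272 higher and 235 lower had an unadjusted p under 0.05. Among the probe sets called by size, 190 of the higher and 185 of the lower were in that group. When the 20 chips entered with the replicate number as a block and the pool as a random block, limma called 14 higher and 1 lower. That fit counts repeat chips of a pool among its residual degrees of freedom, so it is less cautious than the fit on pool means. The single differences below are therefore descriptions of 2 pools, given with the standard error (SE) of limma. None passed the adjusted threshold in the fit on pool means.

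The 1 month pools show how far the calls recurred in other rats. At 1 month 364 probe sets (3.84%) were higher and 535 (5.64%) lower by the same rule. Of the 359 higher at 1 week, 287 (79.9%) had the same sign at 1 month, 86 (24.0%) were called higher there too and 10 (2.79%) were called lower. Of the 761 lower at 1 week, 585 (76.9%) had the same sign, 210 (27.6%) were called lower there too and 24 (3.15%) were called higher. Over all tested probe sets 60.3% had the same sign at both durations, and the differences correlated at r = 0.380 across probe sets. No probe set passed in the test of the difference between durations (limma, 0 after adjustment, smallest adjusted p = 0.9998, 176 at an unadjusted p under 0.05). That test had 2 residual degrees of freedom, so the absence of calls does not show that the durations agree.

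**Figure D2:**
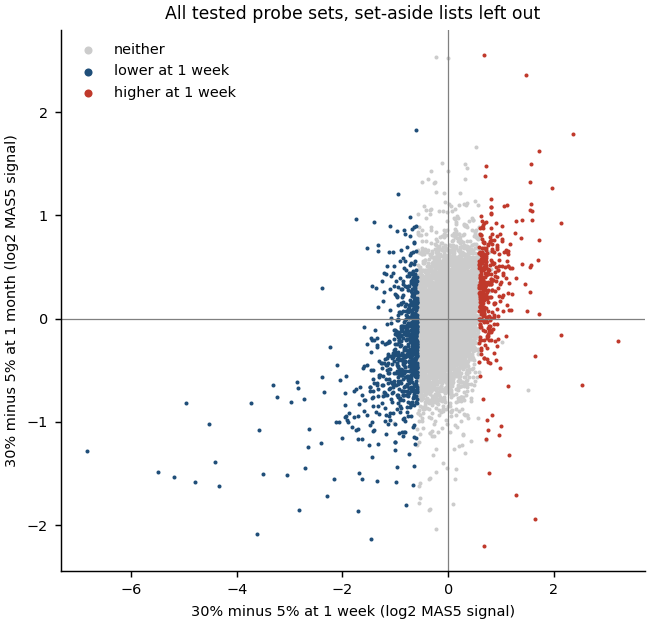
The 30% minus 5% CR difference in log2 MAS5 signal at 1 week (horizontal axis) and at 1 month (vertical axis) for each of the 9482 tested probe sets, with those higher or lower by the fold rule at 1 week in colour. Of the coloured points, 79.9% of the higher and 76.9% of the lower have the same sign at 1 month.

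The intermediate levels of CR at 1 week give a description of the path of these genes. The 10% and 20% pools at 1 week, which the call did not use, stood in order between 5% and 30% CR for 233 of the 359 higher probe sets (64.9%) and for 382 of the 761 lower ones (50.2%). Both pools lay inside the gap, in either order, for 269 of the higher and 554 of the lower. Since the genes were picked for a wide gap between 5% and 30% CR, intermediate values are favoured by that choice, and no comparison with other probe sets is made.

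The increases at 30% CR were led by Nupr1, Pdk4, Atosa and Inmt. The 15 largest had differences from 1.39 to 1.97, 14 of them were graded over the 4 levels (Rgs2 was not) and 9 were also called higher at 1 month. All 15 had an unadjusted limma p under 0.05, beside 272 higher of all 9482 tested probe sets. Genes picked for the largest difference are favoured in a test of that same difference, so these p-values are no separate support. Nupr1, a stress-inducible transcriptional regulator, had signals of 322.4 and 430.3 in the 30% CR pool and 71.1 and 127.2 in the 5% CR pool, a difference of 1.97 ± 0.27 (log2, SE). At 1 month it had 406.5 and 327.9 at 30% CR and 152.6 and 150.9 at 5% CR. Both pools at 30% CR thus stood above both at 5% CR, with no overlap of chips at either duration.

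Pdk4, the kinase that shuts off pyruvate dehydrogenase in fasting, had signals of 294.3 and 386.2 in the 30% CR pool and 100.6 and 104.0 in the 5% CR pool (1.72 ± 0.32), and its 1 month difference was smaller, 0.77. Atosa, for which no role is given here, had signals of 112.4 and 140.6 at 30% CR and 29.5 and 49.7 at 5% CR (1.72 ± 0.23), with a nearly equal difference of 1.63 at 1 month. Inmt, a methyltransferase of small indole amines, had 783.9 and 973.1 at 30% CR and 251.4 and 283.4 at 5% CR (1.71 ± 0.44), with 0.57 at 1 month. Among these, the lowest 30% CR chip stayed above the highest 5% CR chip in each case.

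Several regulators of signalling followed. Rgs2, which shortens signalling through G protein-coupled receptors, had signals of 829.3 and 1337.4 in the 30% CR pool and 298.9 and 434.7 in the 5% CR pool (1.55 ± 0.27), and its other probe set gave 1.56. Ifrd1, a transcriptional co-regulator, had 412.0 and 540.2 at 30% CR and 129.3 and 196.9 at 5% CR (1.56 ± 0.23). Both were again called higher at 1 month, by 1.33 and 1.11. Errfi1, a feedback inhibitor of the epidermal growth factor receptor (1.58), and Arrdc3, an arrestin-like protein that acts on beta-adrenergic receptors (1.39), were higher too, and Arrdc3 was also called at 1 month (0.78).

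Enzymes were also among the 15. Fmo1, a flavin-containing monooxygenase, had signals of 273.2 and 315.7 in the 30% CR pool and 90.6 and 122.0 in the 5% CR pool (1.48 ± 0.33), and it was the one of the 15 with the largest 1 month difference, 2.36, from 322.7 and 316.2 at 30% CR against 52.6 and 73.3 at 5% CR. Aacs, which activates acetoacetate for lipid synthesis (1.54, and 1.06 at 1 month), Pnpla7, a lysophospholipase (1.40, and 0.53) and Coq8a, needed for coenzyme Q synthesis (1.39, and 0.95) were also higher. Dusp23, a phosphatase, rested on 1 chip: its signals were 53.5 and 97.3 at 30% CR and 8.0 and 65.8 at 5% CR, and its 1 month difference was -0.37. Usp2, a deubiquitinase with a daily rhythm (1.46), and Fam107a, an actin-binding protein (1.49), had 1 month differences of 0.34 and 0.08.

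**Figure D3:**
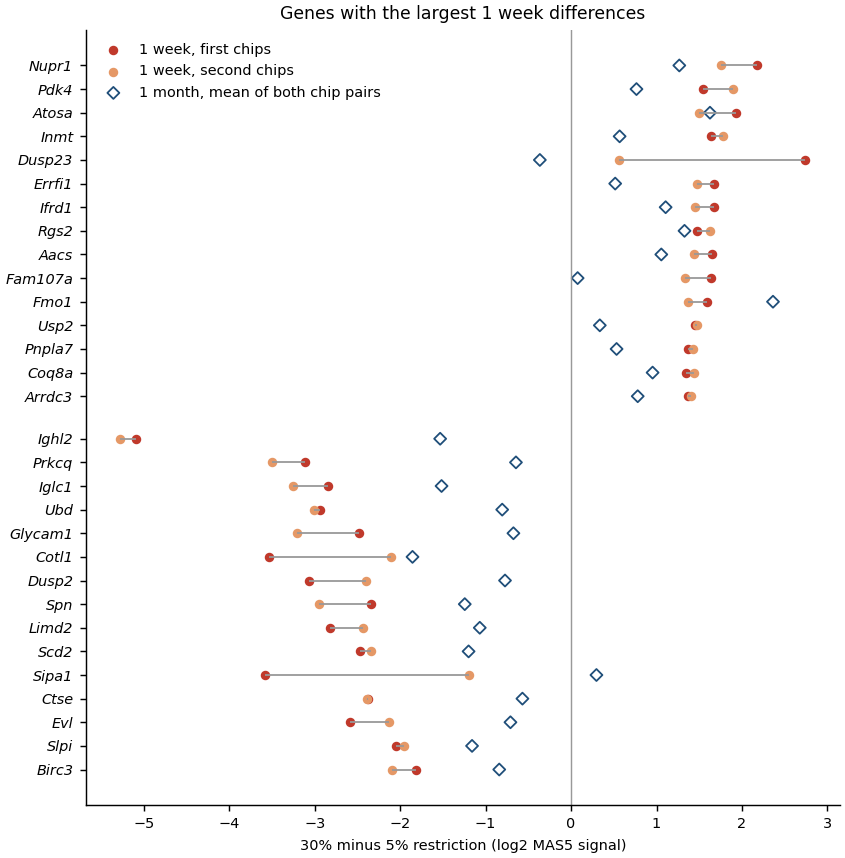
The 15 genes with the largest increase and the 15 with the largest decrease at 30% CR relative to 5% CR after 1 week, in log2 MAS5 signal, with 1 point for each chip pair, joined by a line, and an open diamond for the 1 month mean. Dusp23 and Sipa1 have the widest gaps between chip pairs, and their 1 month differences (-0.37 and 0.30) have the opposite sign.

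The start-site regions of these genes were read in RefSeq (rat assembly GRCr8, 250 bases before to 50 after each start) for 3 short motifs on both strands: the canonical E-box CACGTG, bound by clock and other bHLH factors, the forkhead motif GTAAACA and AGAACA, a hexamer bound by the glucocorticoid receptor. The ends of neighbouring motifs may share bases. Of the 50 named genes called higher, 37 had a region in the table (38 start sites), and of the 63 called lower, 50 had one (53 start sites). The E-box was in 5 of the 38 (13.2%) and in 2 of the 53 (3.77%), beside 6.42% of all 33469 regions. The forkhead motif was in 2 and 1 of them (3.78% of all regions), and AGAACA in 4 (10.5%) and 8 (15.1%), beside 20.7% of all regions. The E-box stretches of 4 of the 5 higher genes are printed to show where the letters stand, with the E-box in capitals. They lie at chr1:190646036-190646101 (minus strand) for Nupr1, chr8:84575343-84575408 (plus strand) for Atosa, chr3:28180626-28180691 (plus strand) for Pnpla7 and chr12:48154067-48154132 (minus strand) for Ung, all in GRCr8 and upstream of the start, and Pnpla7 held another E-box at its start. A match of letters is a description and not a measured binding site.
Nupr1: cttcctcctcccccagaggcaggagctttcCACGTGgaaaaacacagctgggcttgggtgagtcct
Atosa: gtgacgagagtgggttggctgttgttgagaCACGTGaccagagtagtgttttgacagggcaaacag
Pnpla7: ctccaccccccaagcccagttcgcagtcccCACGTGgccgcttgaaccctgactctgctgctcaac
Ung: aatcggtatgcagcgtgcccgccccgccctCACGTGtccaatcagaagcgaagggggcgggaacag

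The largest decreases at 30% CR were in genes that moved with the lymphocyte markers. The 15 that led them had differences from -1.95 to -5.19, 13 were also called lower at 1 month, 4 were graded over the 4 levels and 3 had an unadjusted limma p under 0.05. Over the 8 pools outside the comparison, 14 of the 15 correlated at 0.9 or more with the lymphocyte score (range 0.861 to 0.999), beside 4.28% of all tested probe sets. Iglc1, an immunoglobulin lambda constant gene, had signals of 16.7 and 17.4 in the 30% CR pool and 119.9 and 166.7 in the 5% CR pool (-3.05 ± 2.43). Prkcq, protein kinase C theta of T cells, had 6.4 and 6.1 at 30% CR and 55.6 and 69.3 at 5% CR (-3.31 ± 0.92). Glycam1, a mucin of lymph node venules that binds L-selectin, had 32.4 and 27.5 at 30% CR and 181.3 and 253.9 at 5% CR (-2.85 ± 2.01). The wide SE of such genes comes from their spread among the other pools.

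Others in that list are named for other roles but moved with the same score. Scd2, a fatty acid desaturase, had signals of 20.1 and 44.3 in the 30% CR pool and 111.4 and 225.2 in the 5% CR pool (-2.41 ± 1.19), its other probe set gave -0.97, its 1 month difference was -1.20 and its correlation with the lymphocyte score was 0.93. Cotl1, an actin-binding protein (-2.82), Slpi, a secreted protease inhibitor (-2.0), and Birc3, an inhibitor of apoptosis (-1.95), had correlations of 0.92, 0.996 and 0.95. Sipa1, a GTPase-activating protein, was the 1 gene of the 15 below 0.9 (0.86), and its chips were 6.3 and 29.0 at 30% CR and 75.4 and 66.4 at 5% CR. The part of lymphocyte content in these differences was not tested.

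Of all 761 lower probe sets, those 14 included, 221 (29.0%) correlated at 0.9 or more with the lymphocyte score, and 0 of the 359 higher ones did. The increases tended to run against the score: their median correlation was -0.598, beside 0.716 for the decreases and 0.0061 over all tested probe sets. Nupr1 was at -0.43, Pdk4 at -0.60, Inmt at -0.70, Cidea at -0.70 and Bckdha at -0.82. The part of lymphocyte content in the increases was not tested either. When all probe sets with such a correlation, and those with a pancreas-like pattern, were set aside as well, 358 higher and 540 lower of 9100 remained. Of these, 86 (24.0%) of the higher and 75 (13.9%) of the lower were called the same way at 1 month, and 80.2% and 67.8% had the same sign. Graded order was found in 64.8% of the higher and 51.5% of the lower. The wider set-aside took out positive correlations only, which 0 of the higher probe sets reached. The figures of the higher probe sets could therefore hardly change.

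The decreases that remained were led by Sipa1 as above, Tubb2b (-1.47, and -0.19 at 1 month) and Oxtr, and Lats1, a growth-restraining kinase, also ranked high (-1.25, and 0.37 at 1 month), but Sipa1, Tubb2b and Lats1 were not graded. The genes described next were chosen with their values seen, all of them graded. Oxtr, the oxytocin receptor, had signals of 56.0 and 82.5 in the 30% CR pool and 178.6 and 196.6 in the 5% CR pool (-1.46 ± 0.32), was graded and was lower at 1 month by a larger difference, -2.14. Dclk1, a microtubule-associated kinase, had 30.6 and 61.8 at 30% CR and 83.1 and 118.1 at 5% CR (-1.19 ± 0.21), with -0.74 at 1 month. Vstm4, an immunoglobulin-domain membrane protein, had 25.4 and 48.4 at 30% CR and 61.0 and 93.6 at 5% CR (-1.11 ± 0.24), with -0.91 at 1 month. Cd248, endosialin of stromal cells and pericytes, had 120.6 and 140.1 at 30% CR and 226.6 and 316.8 at 5% CR (-1.04 ± 0.35), with -0.66 at 1 month. These 4 were graded at 1 week and called lower at both durations. Ptges, a prostaglandin E synthase (-1.37), Qprt, an enzyme of NAD synthesis (-1.12) and Marcks, a membrane-bound actin regulator (-0.94), were graded at 1 week but not called at 1 month, where their differences were 0.29, -0.22 and -0.01. The correlations of Ptges, Qprt and Marcks with the lymphocyte score were 0.49, 0.87 and 0.64, so Qprt lay just under the cut of 0.9. Those of Oxtr, Dclk1, Vstm4 and Cd248 were 0.31, 0.25, 0.26 and 0.15.

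Mest, an imprinted gene tied in mice to the growth of fat cells, was the 1 lower gene among the 13 tested of the imprinted growth list. None was higher. The share lower, 7.69%, was close to the 8.09% of all genes. Mest had signals of 402.9 and 481.5 in the 30% CR pool and 736.7 and 1038.7 in the 5% CR pool (-0.99 ± 0.37). At 1 month the signals were 208.5 and 154.1 at 30% CR and 636.9 and 449.2 at 5% CR (-1.58). Its correlation with the lymphocyte score was 0.12.

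When the 30% minus 5% difference was estimated from both durations together, a fit added after the data were seen, limma called 27 probe sets higher (0.285%) and 6 lower (0.0633%). Its spread came from all 10 pools, the compared ones included, around terms for level of CR and for duration. Of these probe sets, 25 and 6 were called by size at 1 week, but both rules use the 1 week pools, so the overlap is not independent. Atosa had the smallest adjusted p (0.00577, mean difference 1.67), followed by Fmo1 (1.92) and Glul (0.90), both with an adjusted p of 0.0178 by limma. Nupr1, Rgs2, Ifrd1, Aacs and Coq8a of the 15 were also among them. The 4 named genes that were lower were Oxtr (-1.80), Penk (-1.78), Mest (-1.28) and Vstm4 (-1.01). Penk encodes the precursor of the enkephalins, and its signals at 1 week were 9.2 and 24.4 in the 30% CR pool and 47.4 and 50.1 in the 5% CR pool.

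Genes that respond to glucocorticoids and fasting were the list with the largest number of members higher, though not the largest share. Of 29 tested, 9 were higher and 2 were lower, where 3.91% of all genes were higher and 8.09% lower. These shares of all genes are the reference for every list below. The median difference was 0.38 beside -0.03 over all genes. At 1 month, where 3.83% of all genes were higher and 5.62% lower, 7 were higher and 1 lower with a median of 0.32. Besides Pdk4 and Errfi1, they were Fkbp5, a chaperone of the glucocorticoid receptor, Tsc22d3, the glucocorticoid-induced leucine zipper, Glul, glutamine synthetase, Pdk2, Lpin1 and the clock genes Per1 and Per2. Fkbp5 had signals of 261.3 and 364.4 in the 30% CR pool and 111.4 and 178.4 in the 5% CR pool (1.13 ± 0.31). Glul had 2459.0 and 3012.1 at 30% CR and 1216.1 and 1479.5 at 5% CR (1.02 ± 0.35), and it stood at 0.78 at 1 month. Tsc22d3 had 562.7 and 759.7 at 30% CR and 232.1 and 445.3 at 5% CR (1.02 ± 0.22), with 0.76 at 1 month. The 2 lower members were Gadd45b, a stress-induced growth arrest gene (-1.20), and Ucp3, a mitochondrial carrier (-0.65), which was higher at 1 month (0.74).

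Clock repressors and output genes were split. Of 11 tested, 5 were higher and 2 lower, with a median of 0.20 at 1 week and of -0.42 at 1 month, where 1 was higher and 3 were lower. Per2, a repressor of the clock, had signals of 102.4 and 126.7 in the 30% CR pool and 55.9 and 54.4 in the 5% CR pool (1.05 ± 0.55), but only 0.07 at 1 month. Per1 (1.12) and Hlf, a PAR bZIP output factor (1.12), had 1 month differences of 0.65 and 0.14. Nr1d1, the repressor REV-ERB alpha, had 74.3 and 111.3 at 30% CR and 128.6 and 197.9 at 5% CR (-0.81 ± 0.65), and Bhlhe41, another repressor, was at -0.72, and both were also called lower at 1 month (-0.99 and -0.81).

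**Figure D4:**
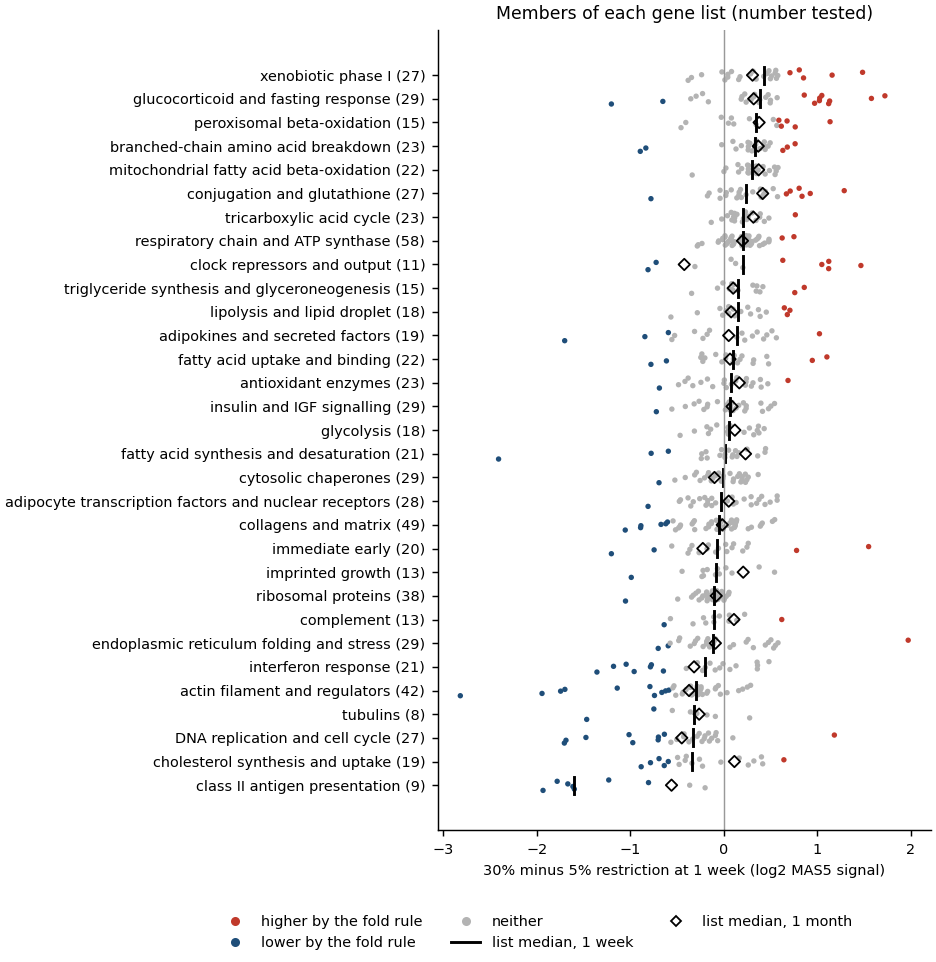
Difference in log2 MAS5 signal, 30% minus 5% CR at 1 week, for the tested members of each gene list, with 1 point per gene, a bar at the list median and an open diamond at the list median after 1 month. Oxidation, fasting and detoxification lists stand right of 0 and the class II, cholesterol, cell cycle and actin lists left of it, while the cholesterol and clock medians are among those on the other side of 0 at 1 month.

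Genes of fatty acid oxidation leaned upward by small amounts. In peroxisomes, 5 of 15 tested were higher and 0 lower (median 0.35, and 0.38 at 1 month). Ehhadh, the bifunctional enzyme of peroxisomal beta-oxidation, had signals of 105.6 and 185.3 in the 30% CR pool and 47.7 and 85.1 in the 5% CR pool (1.13 ± 0.55), with 0.63 at 1 month. Acot8 (0.76), Decr2 (0.67), Pecr (0.61) and Phyh (0.59) were the other 4. In mitochondria, none of 22 beta-oxidation genes reached 1.5-fold, yet 21 of the 22 were above 0, with a median of 0.30 at 1 week and 0.37 at 1 month. Acadl, the long-chain acyl-CoA dehydrogenase, had 745.3 and 1052.3 at 30% CR and 561.3 and 840.8 at 5% CR (0.37 ± 0.26), and Cpt1a, the liver form of the carnitine transferase, was the 1 below 0 (-0.34).

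The mitochondrial pathways downstream of oxidation also held many small differences. Of 23 tricarboxylic acid cycle genes, 21 were above 0 (median 0.21) and 1 was called higher, Pc, pyruvate carboxylase, with signals of 990.9 and 1308.7 in the 30% CR pool and 561.6 and 801.3 in the 5% CR pool (0.76 ± 0.36, and -0.09 at 1 month). Of 58 genes of the respiratory chain and ATP synthase, 51 were above 0 (median 0.21, and 0.20 at 1 month), and 2 were called higher, the complex I subunits Ndufv3 (0.75) and Ndufb8 (0.62). Over all 7079 genes, 3283 were above 0 and 3796 below. The shares called higher in the cycle and respiratory chain lists, 4.35% and 3.45%, were close to the 3.91% of all genes. Glycolysis, with 18 tested, had none called and a median of 0.05.

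Branched-chain amino acid breakdown had 3 of 23 higher (13.0%, beside 3.91% of all genes) and 2 lower (8.70%, beside 8.09%). The median was 0.33, with 3 higher, 0 lower and a median of 0.37 at 1 month. Bckdha, a subunit of the branched-chain ketoacid dehydrogenase, had signals of 140.1 and 199.2 in the 30% CR pool and 73.0 and 133.1 in the 5% CR pool (0.76 ± 0.36), and 0.72 at 1 month. Auh (0.68) and Mccc1 (0.63), enzymes of leucine breakdown, were the other 2 higher. The lower members were Bcat1, the cytosolic aminotransferase (-0.89), and Ppm1k, the phosphatase that activates the dehydrogenase (-0.83), and Ppm1k was called higher at 1 month (0.86).

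Genes of fat release and storage were called higher in a few cases. Lipolysis and lipid droplet genes had 3 of 18 higher (16.7%, beside 3.91% of all genes) and 0 lower (median 0.15). Pnpla2, adipose triglyceride lipase, had signals of 2109.0 and 3190.2 in the 30% CR pool and 1343.0 and 1883.6 in the 5% CR pool (0.71 ± 0.29), with 0.49 at 1 month, and Pde3b, the phosphodiesterase through which insulin restrains lipolysis (0.68), and Cidea, a lipid droplet protein (0.65), were also called at 1 month (0.59 and 0.65). Hormone-sensitive lipase, Lipe, was at 0.37 and was not called. Triglyceride synthesis had 2 of 15 higher (13.3%) and 0 lower. The higher genes were Lpin1, a phosphatidic acid phosphatase, with 908.7 and 1599.6 at 30% CR and 554.3 and 797.2 at 5% CR (0.86 ± 0.30, and 0.65 at 1 month), and Dgat1, which adds the last acyl chain (0.76, and 0.36 at 1 month).

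For fatty acid uptake, 2 of 22 genes were higher (9.09%, beside 3.91% of all genes) and 2 lower (9.09%, beside 8.09%). Slc27a1, the transport protein FATP1, had signals of 1202.5 and 1887.4 in the 30% CR pool and 590.0 and 836.3 in the 5% CR pool (1.10 ± 0.39), and 0.67 at 1 month. Gpihbp1, which anchors lipoprotein lipase on the capillary wall, had 608.8 and 843.2 at 30% CR and 342.5 and 404.5 at 5% CR (0.94 ± 0.44), and 0.02 at 1 month. The lower members were Slc27a3 (-0.78) and Fabp3 (-0.61), both at modest signals. Lipoprotein lipase itself, Lpl, was at 0.10 and Cd36 at 0.15, neither of them called.

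Fatty acid synthesis did not follow one direction. None of the 21 tested genes was higher and 3 were lower, Scd2 as above, Fads1, the delta-5 desaturase (-0.78), and Pnpla3 (-0.59), and the list median was 0.01. The abundant enzymes lay close to 0: Fasn, fatty acid synthase, had signals of 3901.6 and 6017.5 in the 30% CR pool and 4094.9 and 6080.9 in the 5% CR pool (-0.04 ± 0.16), and Scd, the main desaturase, was at 0.01 ± 0.17. Acaca was at 0.25 and Acly at -0.18.

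Cholesterol synthesis and uptake genes leaned downward at 1 week, with 5 of 19 lower, 1 higher and a median of -0.34. Dhcr7, which makes cholesterol in the last step of the pathway, had signals of 62.4 and 94.8 in the 30% CR pool and 106.1 and 189.9 in the 5% CR pool (-0.88 ± 0.44). Srebf2, the transcription factor of the pathway, had 38.0 and 61.2 at 30% CR and 69.4 and 87.6 at 5% CR (-0.69 ± 0.44), and Idi1, isopentenyl diphosphate isomerase, was at -0.78. Fdft1, squalene synthase, was the 1 higher member (0.64). At 1 month the list had no call in either direction and a median of 0.11, and Dhcr7 and Srebf2 stood at 0.16 and 0.22. The correlations of Srebf2, Idi1 and Dhcr7 with the lymphocyte score were 0.82, 0.81 and 0.63. For all of these genes the test of the difference between durations did not pass. With 2 residual degrees of freedom that test has little power, so it does not show that the durations agree.

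Enzymes that process foreign compounds had more members higher than lower at both durations. Of 27 phase I genes, 5 were higher (18.5%, beside 3.91% of all genes) and 0 lower (median 0.43). At 1 month 9 were higher and 1 lower (median 0.31). Besides Fmo1, Cbr1, a carbonyl reductase, had signals of 682.1 and 909.0 in the 30% CR pool and 310.7 and 401.6 in the 5% CR pool (1.16 ± 0.27), while Por, the electron donor of cytochromes P450 (0.85), Cyp2e1 (0.81) and Ephx1 (0.71) were also higher. Of 27 conjugation and glutathione genes, 6 were higher (22.2%) and 1 lower (3.70%, beside 8.09% of all genes), with a median of 0.24. At 1 month 8 were higher and 0 lower (median 0.41). Gss, glutathione synthetase, had 218.3 and 407.1 at 30% CR and 105.1 and 142.2 at 5% CR (1.29 ± 0.37), with 0.95 at 1 month. The glutathione transferases Gstt2 (0.92), Gstt1 (0.84) and Mgst2 (0.80) were each called at both durations. Antioxidant enzymes had 1 of 23 higher, Prdx6 (0.69), and 1 lower, Glrx (-0.69).

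Of 49 matrix genes tested, 6 were lower (12.2%, beside 8.09% of all genes) and 0 higher, and the median was -0.05, so the share lower was close to that of all genes. Eln, elastin, had signals of 79.9 and 123.6 in the 30% CR pool and 169.9 and 250.7 in the 5% CR pool (-1.05 ± 0.25). Fbn1, fibrillin, had 432.0 and 587.5 at 30% CR and 729.1 and 1196.1 at 5% CR (-0.89 ± 0.27), and Loxl1, a cross-linking oxidase of elastin, was at -0.89. Plod2 (-0.67), Col12a1 (-0.62) and Col1a1 (-0.60) were the other 3. At 1 month none of the 6 was called, with Eln at -0.36 and Fbn1 at -0.55, and the correlations of Eln and Fbn1 with the lymphocyte score were 0.35 and 0.22. Abundant collagens such as Col3a1 (-0.13) and Col1a2 (0.00) differed little.

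Genes of the actin filament had 10 of 42 lower, 0 higher and a median of -0.30, and at 1 month 17 lower, 0 higher and a median of -0.37. Lcp1, Lsp1 and Cotl1, among the largest, are known from white blood cells. Lcp1, the leukocyte plastin, had signals of 83.6 and 96.3 in the 30% CR pool and 263.6 and 452.0 in the 5% CR pool (-1.94 ± 1.20), and its correlation with the lymphocyte score was 0.99, while those of Cotl1 and Lsp1 were 0.92 and 0.94. Tes, a focal adhesion protein, was at -1.75 and Cnn2, a calponin, at -1.14, and thymosin beta-4, Tmsb4x, had 2275.2 and 3323.4 at 30% CR and 3454.0 and 4950.4 at 5% CR (-0.59 ± 0.27). Of 8 tubulins, 2 were lower, Tubb2b (-1.47) and Tuba4a (-0.75). The share of white blood cells in these differences was not tested.

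Class II antigen presentation had the lowest median of the lists that were not set aside. All 9 tested genes were below 0, 7 were lower and the median was -1.60, and at 1 month 3 were lower with a median of -0.56. Cd74, the invariant chain, had signals of 450.8 and 598.0 in the 30% CR pool and 1386.1 and 1964.2 in the 5% CR pool (-1.67 ± 0.98), and RT1-Ba, a class II alpha chain, had 107.6 and 188.0 at 30% CR and 482.5 and 611.3 at 5% CR (-1.93 ± 1.24). Their correlations with the lymphocyte score were 0.98 and 0.99, and lymphocyte markers moved the same way in the same pools.

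Other immune lists moved less. Interferon response genes had 7 of 21 lower (33.3%, beside 8.09% of all genes) and 0 higher (median -0.20). They were led by Irf8, a factor of myeloid and B cells (-1.36), Mx1, an antiviral GTPase (-1.18), and the immunoproteasome subunit Psmb9 (-1.04). The correlations of these 3 with the lymphocyte score were 0.98, 0.94 and 0.92. Macrophage markers had 5 of 21 lower (23.8%) and 0 higher (median -0.20). Their summed signal was 4068 and 5426 in the 30% CR chips and 4827 and 6593 in the 5% CR chips. Of 13 complement genes, 1 was higher, C3 (0.62), and 1 lower, Cd55 (-0.64). Markers of the other cells of fat gave few calls: 1 of 19 endothelial genes was higher (Gpihbp1), 2 of 15 smooth muscle genes were lower (Acta2 and Cald1), and of 8 mesothelial genes 1 was higher (Krt19) and 1 lower (Slpi). Of 2 thermogenic genes tested, Cidea was higher.

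DNA replication and cell cycle genes were lower in 8 of 27 and higher in 1, with 25 of 27 below 0 and a median of -0.33, and at 1 month 11 were lower and 0 higher (median -0.45). Mcm6, a subunit of the replicative helicase, had signals of 8.8 and 19.8 in the 30% CR pool and 31.4 and 59.0 in the 5% CR pool (-1.71 ± 0.80). Pclaf, a partner of the sliding clamp, had 18.2 and 16.9 at 30% CR and 42.0 and 76.0 at 5% CR (-1.69 ± 0.90). Both correlated with the lymphocyte score, at 0.90 and 0.93. Ung, uracil DNA glycosylase, was the higher member, with 79.7 and 123.2 at 30% CR and 41.1 and 46.5 at 5% CR (1.18 ± 0.24), and 0.09 at 1 month.

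Of 19 adipokines and secreted factors, 1 was higher (5.26%, beside 3.91% of all genes) and 3 were lower (15.8%, beside 8.09%). Agt, angiotensinogen, had signals of 2109.0 and 3204.6 in the 30% CR pool and 1090.0 and 1505.1 in the 5% CR pool (1.02 ± 0.27), with 0.90 at 1 month. Lep, leptin, had 184.0 and 242.2 at 30% CR and 242.2 and 284.2 at 5% CR (-0.31 ± 0.38) and was not called at 1 week, while at 1 month it was called lower (-1.13). Besides Penk, the lower ones were Ccl2, a monocyte chemokine (-0.84), and Sfrp1, a Wnt antagonist (-0.59). Among 28 transcription factors and nuclear receptors, 1 was lower, Rxrb (-0.81), and Pparg, the master regulator of fat cells, was at 0.49 ± 0.51. Of 29 genes of insulin and insulin-like growth factor signalling, 1 was lower, the binding protein Igfbp5 (-0.72 ± 0.27).

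Protein folding and translation genes had few calls and small medians. Of 29 endoplasmic reticulum genes, Nupr1 was higher and 2 were lower, the chaperone Hspa5 (-0.60 ± 0.20), with signals of 362.6 and 543.7 in the 30% CR pool and 529.0 and 850.4 in the 5% CR pool, and its cofactor Sdf2l1 (-0.70), which was also lower at 1 month (-0.66). Of 29 cytosolic chaperones 1 was lower, and of 38 ribosomal protein genes 1 was lower, Rpl39, with a median of -0.10. Of these 38 ribosomal protein genes, 33 were below 0 at 1 week and 31 at 1 month. Immediate early genes had 2 of 20 higher, Rgs2 and Zfp36 (0.78), and 2 lower, Gadd45b and Ier5 (-0.75).

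Over the 4 levels of CR at 1 week, mean log2 signals show how single genes reached their 30% value. Nupr1 was at 6.57, 6.89, 7.56 and 8.54 at 5%, 10%, 20% and 30% CR. Each of its steps was larger than the one before, but the levels are not evenly spaced. Pdk4 was at 6.68, 7.11, 7.99 and 8.40, and Fmo1 at 6.72, 6.86, 7.42 and 8.20. Inmt, in contrast, had covered most of its distance at 10% CR (8.06, 9.11, 9.52 and 9.77). Among the lower genes, Eln went down in steps of 7.69, 7.53, 7.14 and 6.63, and Mest was level between 5% and 10% CR (9.77 and 9.75) before 9.21 and 8.78.

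**Figure D5:**
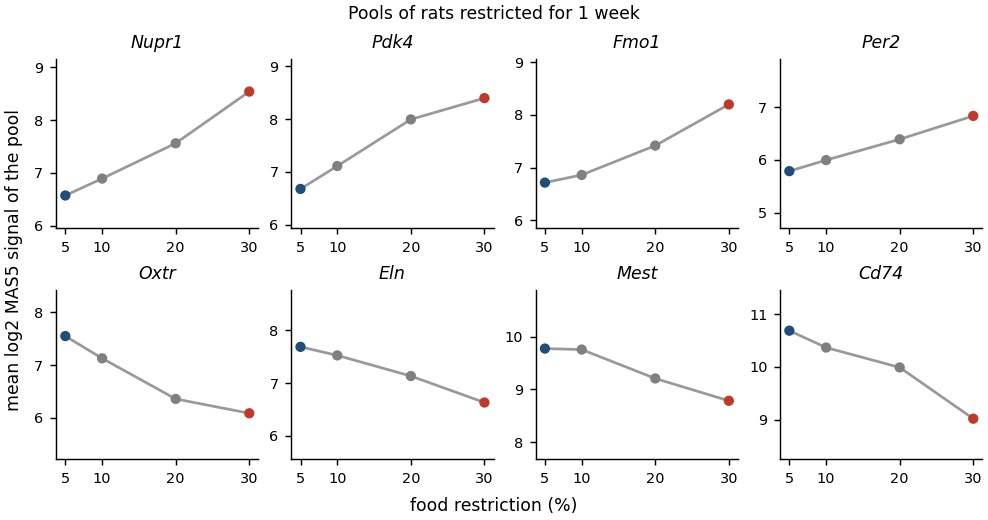
Mean log2 MAS5 signal of the 1 week pools at 5%, 10%, 20% and 30% CR for 8 genes, with 1 point per pool (mean of 2 chips) and the compared end pools in colour. The vertical axes span the same range in every panel, and Nupr1 is at 6.57, 6.89, 7.56 and 8.54. The 8 genes are a selection that moves in one direction over the 4 levels. Of all probe sets called, 64.9% of the higher and 50.2% of the lower did so.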

How the data were processed

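Adipose tissue RNA of 10 pools was hybridised by the authors to 20 one-colour Affymetrix rat chips, 2 per pool. The authors deposited linear intensity values, the MAS5 signal of each probe set (MAS5 is named in the submitters' processing notes). Detection and change calls were not used. The trimmed mean signal (2% trimmed) was nearly the same for all first chips and for all second chips of a duration and differed between first and second chips at 1 week, which is why chips were paired by replicate number. At 1 month it was 98.4 and 98.1. Chip number is a scale and not an animal, since both chips carry the same pool.

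Of 15923 probe sets, 57 array controls were left out. The platform table gave 1 symbol to 12783 of the other 15866, several to 312 and none to 2771, and 12748 matched the RefSeq gene table of GRCr8. Signals under 1 were set to 1 (0.996% to 3.87% of a chip's values) and log2 was taken. Probe sets whose mean log2 signal reached the 40th percentile, equal to 22.8 on the linear scale, entered the tests. Each gene was represented by its brightest probe set. A call needed both chip pairs to differ one way and a mean of 1.5-fold. The median SD between the chips of a pool was 0.186 (log2).

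For the test, log2 signals were averaged per pool and limma 3.58.1 in R 4.3.3 (eBayes with an intensity trend, two-sided, Benjamini-Hochberg, threshold 0.05) was fitted over the 10 pools. The 2 compared pools had terms of their own, and the spread came from the other 8 around a dose line at each duration (4 residual degrees of freedom), which assumes that the compared pools vary like them. Adjusted p-values are those of limma throughout. Its median SE was 0.268. With 1 pool per group, variation between rats of a group was not measured.

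The members and gene lists were chosen with earlier results of these data known. The lists name 47 pathways and cell types, and the immunoglobulin list matched no symbol on the array. Named genes were the 15 of largest difference in each direction, and up to 4 called members of each list (or the 2 of largest difference). The 15 needed a signal of at least 50 on both chips of the higher pool. List members had no such limit, and some, such as Mcm6 and Pclaf, had a lower signal on a chip of the higher pool. Genes named beyond that rule were chosen after their values were seen, among them those after the wider set-aside. The number of chips limits the precision. The limma fit on pool means and the fold rule were run on simulated data, and the other steps were not. The alternatives tried were other scalings, offsets, filters, folds, spreads and set-aside lists, single chips left out, and the replicate block.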

Additional observations from a re-analysis of the deposited data

How the results depend on the processing

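The counts by size moved with the fold asked for and with the treatment of low signals. With an offset of 16 added before log2 there were 207 higher and 378 lower probe sets, with no filter on low signals 1012 and 2449, with a filter at the 60th percentile 231 and 314, and at 2-fold 66 and 206. Asking for a signal of 50 in the higher pool, added after the data were seen, left 374 lower, and quantile normalization gave 501 lower. With a single chip pair, where agreement of pairs is no longer asked for, 461 to 540 were higher and 894 to 1083 lower. Without pairing by replicate number (all 4 chip differences of one sign) there were 279 higher and 620 lower. The share of calls with the same sign at 1 month, 77.9%, was 85.5% with the offset, 57.6% with no filter, 87.7% at the 60th percentile, 86.8% at 2-fold, 72.7% after the wider set-aside, 86.7% at a signal of 50 and 63.6% to 74.1% with a single chip pair. The causes were not tested.

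In limma, the fit on 20 chips with the replicate block and the pool as a random block (chip correlation 0.400) called 14 higher and 1 lower (smallest adjusted p = 7.66e-04), and both durations together 27 and 6. The fit on chips counts repeat chips of a pool among its residual degrees of freedom, where the pool means leave 4. Its adjusted p is therefore less cautious. Leaving out a chip of each pool gave 0 to 1 higher and 0 lower. Every other alternative gave 0 and 0 (smallest adjusted p from 0.0526 to 0.381). Of the values of the named genes under the alternatives, 691 kept their side of the call, 57 (29 genes) no longer passed and 8 (6 genes) newly passed. No called gene reversed under median centring or quantile normalization. With a single chip pair, an offset or a floor a called gene could not reverse, since both its chip pairs already had one sign. All 252 alternative medians of the 36 lists lay within 0.186, the median chip SD, of the reported ones, and medians close to 0, such as that of the matrix list, changed sign in some. Limits are the single pool per group, the set of lymphocyte and pancreas genes that differed between the pools, and signals near background, where a fold depends on the offset.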
